A study of Mus musculus with 7 samples.

Results

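The cells described here came from liver tumors and carried transcripts of Afp, which encodes the fetal serum protein alpha-fetoprotein, and of Igf2, which encodes the fetal growth factor insulin-like growth factor 2. They were selected on their counts in single-cell libraries of mouse liver, in which each transcript carries a unique molecular identifier (UMI). A barcode, the tag of 1 droplet, was a member if it had over 1000 UMIs and at most 20% mitochondrial UMIs, and at least 10 UMIs of Afp and Igf2 together. Those UMIs also had to reach 0.4% of the barcode's UMIs outside mitochondrial, Hba and Hbb genes, and the adhesion genes Epcam, Cldn3, Cldn6 and Cldn7 had to sum to under 3 UMIs. Of 81779 barcodes within the limits on depth and mitochondrial share in the 4 tumor libraries NEJ634, NEJ687, NEJ709 and NEJ723, 4685 were members (5.73%). The other 3 libraries of the series, NEJ638, NEJ654 and NEJ677, held 1 barcode that met the same rule.

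The study made tumors with an Alb-Cre;CAG-MYC mouse on a C57BL/6J background (ABC-Myc), in which Cre under the albumin enhancer and promoter switches on a human MYC transgene in cells of the hepatocyte lineage, and compared them with livers of healthy mice. Albumin promoter activity, and with it Cre, is a property of hepatoblasts and hepatocytes. Which other cells of these tumors carry the active transgene was not measured. Tissue was dissociated to single cells per the labels, although the series text speaks of nuclei. The labels describe all 7 libraries as liver of a murine hepatoblastoma model and give neither genotype nor age per library. The division into 4 tumor libraries and 3 remaining libraries is therefore the rule's and not the labels'. The study's text names the same 4 libraries as tumor samples and reports 3 healthy livers beside them. The division was used to say where values came from and which libraries were set against each other in ratios. Each library stands for 1 sample, the labels assign no groups among which libraries could be replicates, and no difference between libraries or sets of cells was tested. A range in parentheses after a level is its exact Poisson interval at 95%, one after a share is the Clopper-Pearson interval, and both are limited to counting error.

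In the fetal liver, hepatoblasts are the shared precursors of hepatocytes and bile duct cells. They secrete alpha-fetoprotein in place of much of the albumin of the adult liver, and they express Igf2 and the noncoding RNA H19, neighbouring imprinted genes that are read from opposite parental chromosomes and fall silent in the liver after birth. Hepatoblastoma is the liver cancer of early childhood whose cells resemble these precursors, and alpha-fetoprotein in serum is its usual marker.

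The promoters of Afp and Alb are shown because these sister genes, which stand next to each other, were both measured in the members. In GENCODE M21, whose coordinates are GRCm38 (the build behind the deposited files is not stated), Afp (ENSMUSG00000054932) lies on chromosome 5 from 90490737 to 90508907 and Alb (ENSMUSG00000029368) lies on chromosome 5 from 90460897 to 90476602, both on the plus strand. The sequences are those of RefSeq for GRCm38.p6, from 250 bases before the transcription start to 50 after it, on the plus strand at chr5:90490464-90490763 for Afp and chr5:90460620-90460919 for Alb. The capitals mark the letters TATA, the core of the TATA box, and the GENCODE gene begins 23 bases downstream of the RefSeq start for Afp and 27 for Alb.
Afp: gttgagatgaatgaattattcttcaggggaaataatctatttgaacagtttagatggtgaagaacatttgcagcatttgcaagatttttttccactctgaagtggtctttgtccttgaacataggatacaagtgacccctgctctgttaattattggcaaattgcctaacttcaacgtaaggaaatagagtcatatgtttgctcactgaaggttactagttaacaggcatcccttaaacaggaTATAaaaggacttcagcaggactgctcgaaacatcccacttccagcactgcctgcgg
Alb: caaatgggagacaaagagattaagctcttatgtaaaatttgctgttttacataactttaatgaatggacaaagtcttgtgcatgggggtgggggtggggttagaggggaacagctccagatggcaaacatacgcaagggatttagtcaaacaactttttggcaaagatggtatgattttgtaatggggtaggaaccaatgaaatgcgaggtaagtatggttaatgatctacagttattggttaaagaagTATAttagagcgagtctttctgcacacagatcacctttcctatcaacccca

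These letters, which read the same on both strands, were found 1 time in each sequence. In Afp they begin 7 bases before the RefSeq start and 30 before the GENCODE start, and in Alb 1 and 28 bases before them. The same letters were found in 12070 of 32851 RefSeq promoters of this length (36.7%) and in 5 of 13 matched hepatocyte marker genes (Alb, Apoa2, Fabp1, Fgb and Rbp4). They were chosen after both promoters had been read, and a match is only a description of the letters.

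Members were spread unevenly over the tumor libraries. NEJ634 held 4477 members, which was 11% of its 40660 barcodes (10.7 to 11.3) and 95.6% of all members. NEJ687 held 113 of 7531 (1.5%), NEJ723 held 75 of 12106 (0.62%) and NEJ709 held 20 of 21482 (0.0931%). A sum over all members is therefore nearly the value of NEJ634, and every value below is given per library. The deepest members were those of NEJ687, with a median of 16522 UMIs and 3859 genes, against 5566 UMIs in NEJ709, 2999 in NEJ634 and 2662 in NEJ723. In NEJ709 the 2 deepest members held 60.3% of the UMIs behind its levels, so a summed level there is mostly theirs, and without them Alb was at 3853, Ttr at 2426 and H19 at 7047 UMIs for every 1000000 outside mitochondrial, Hba and Hbb genes (CPM). NEJ723 stood apart, since its members had fewer UMIs than the other barcodes of their library (median 4352), while members of the other 3 libraries had more (medians of the other barcodes 1552 to 4969).

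The limit on Epcam and claudin UMIs, genes of epithelial junctions, acted mainly on NEJ723. It left out 125 of the 200 barcodes there that met the Afp and Igf2 limits, with a median of 38711 UMIs, and 67 of 4544 in NEJ634. In NEJ687 and NEJ709 it left out 7 barcodes each. A limit in UMIs admits shallow barcodes more readily than deep ones: 21 members of NEJ723 had 1 such UMI and 16 had 2, and Cldn7 was at 7.83 in NEJ634, 0 in NEJ687, 14.5 in NEJ709 and 96.2 in NEJ723 CPM in members. At the lower edge of the Afp and Igf2 share, 895 members of NEJ634 lay between 0.4% and 0.5%, and 714 barcodes that met the other limits lay between 0.3% and 0.4%. Exactly 10 UMIs of both genes were counted in 398 members of NEJ634, and 479 barcodes there missed the limit with 9, so the edge of the set in NEJ634 falls in a continuous range. The members' own Afp and Igf2 share had a median of 0.559 to 0.837% over the 4 libraries and reached 3.14% in NEJ634.

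Barcodes and sex-linked genes were examined because the description of NEJ709 names NEJ634. Of the members, 75 had a barcode that passed the limits in another library too, and in no case was it a member in both. Xist, expressed in females, was at 569 CPM in NEJ634 members, with no UMI in members from NEJ687, NEJ709 or NEJ723. Genes of the Y chromosome (Uty, Kdm5d, Eif2s3y and Ddx3y together) reached 102 in NEJ687, 121 in NEJ709 and 90.8 in NEJ723, with 1 UMI in all NEJ634 members. The members of NEJ709 thus did not share their sex with those of NEJ634.

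The genes that define the cells were read as levels in CPM, summed over the barcodes of a set. A set of 3 backgrounds was taken in the same way: lymphocyte barcodes of the same library (at least 5 UMIs of T and B cell genes), barcodes of at most 100 UMIs, which hold free RNA, and hepatocytes of the 3 remaining libraries (at least 5% of UMIs from 12 hepatocyte genes), whose values are always listed for NEJ638, NEJ654 and NEJ677 in turn. Afp was at 3542 (3514 to 3571) in NEJ634, 2147 (2083 to 2212) in NEJ687, 2982 (2751 to 3227) in NEJ709 and 2532 (2309.5 to 2771) in NEJ723. Igf2 was at 3412 (3384 to 3439.7) in NEJ634, 3591 (3508 to 3675) in NEJ687, 4080.5 (3809.7 to 4366) in NEJ709 and 6010.5 (5664 to 6372) in NEJ723. Both genes chose the members, so these levels are a description. In NEJ723 Afp made up 29.6% of the UMIs of the pair against 37.4% in NEJ687, 42.2% in NEJ709 and 50.9% in NEJ634. The NEJ723 value rested on members low in hepatocyte markers, since over its 40 members with at least 1% of UMIs from 16 hepatocyte markers Afp was at 4182, Igf2 at 4776 and the Afp share of the pair 46.7%. UMIs of both genes were found in 4395 of 4477 members of NEJ634, 107 of 113 of NEJ687, 18 of 20 of NEJ709 and 57 of 75 of NEJ723.

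H19, Alb and Apoa1 were not part of the rule. H19 was at 6136 (6099 to 6173) in NEJ634, 10392 (10251 to 10535) in NEJ687, 7561 (7190.5 to 7945) in NEJ709 and 369 (287 to 466) in NEJ723, so NEJ723 lay far below the other 3. Alb, which encodes serum albumin, was at 5063 (5029 to 5096) in NEJ634, 3778 (3693 to 3864) in NEJ687, 6414 (6073 to 6768) in NEJ709 and 2169 (1963 to 2391) in NEJ723. With at least 1% hepatocyte markers Alb was at 3805 in NEJ723 and 3783 in NEJ687, against 5108 in NEJ634 and 6721 in NEJ709, but Alb is 1 of the 16 markers, so that limit raises it by itself. Apoa1, which encodes the main protein of high-density lipoprotein, was at 3122 (3095 to 3148) in NEJ634, 4416 (4324 to 4509.5) in NEJ687, 6147 (5814 to 6495) in NEJ709 and 3430 (3169.8 to 3706) in NEJ723. In lymphocyte barcodes, which should lack these genes, H19 was at 77.6 to 649, Alb at 78.5 to 261 and Apoa1 at 226 to 315, below the members of the same library in all cases. In barcodes of at most 100 UMIs, Alb was at 2601 in NEJ634, 765 in NEJ687, 755 in NEJ709 and 1096 in NEJ723, which is also below the members of each library. Hepatocytes of the remaining libraries had Alb at 42809, 64387 and 28464 CPM. Afp there was at 10.3, 1.83 and 1.55, Igf2 at 0.765, 0 and 0 and H19 at 244, 4.26 and 0.

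**Figure D1:**
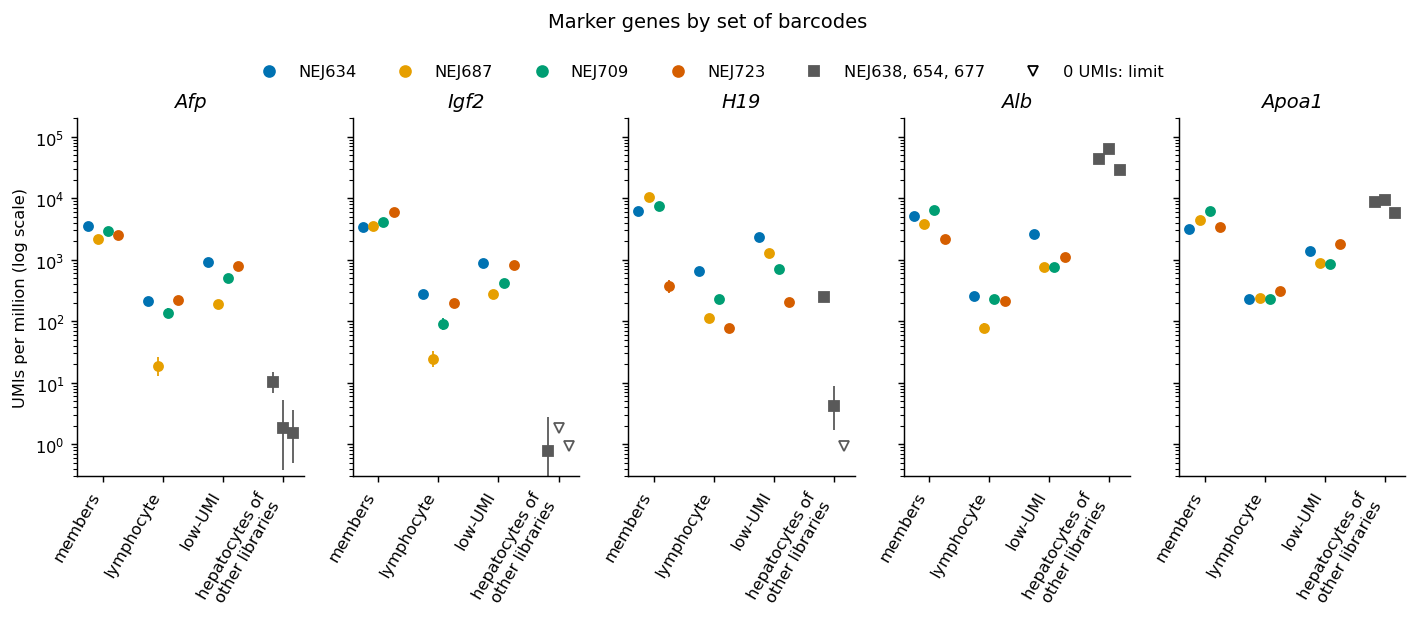
Levels of the 5 marker genes in CPM (log axis) in members, lymphocyte barcodes and barcodes of at most 100 UMIs (low-UMI) of the 4 tumor libraries, and in hepatocytes of the 3 remaining libraries. Points are libraries, bars are exact 95% Poisson intervals and open triangles mark the limit of 3 UMIs set for a count of 0; H19 in NEJ723 members (369) lies below the members of the other 3 libraries (6136 to 10392).

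Shares of members with a UMI were taken after each barcode had been thinned to 1000 UMIs, since members and lymphocytes differ in depth, and no barcode was too shallow for it. Alb was found in 93.8% of NEJ634 members, 88.5% in NEJ687, 85% in NEJ709 and 56% in NEJ723, against 2.03 to 26.5% of lymphocytes. H19 was found in 96.7%, 98.2%, 80% and 13.3% in the same order, against 45.6%, 13.4%, 9.63% and 1.03% of lymphocytes. The interval of the H19 share in NEJ723 members was 6.58 to 23.2%. Without thinning, H19 was found in 99.6%, 100%, 90% and 21.3% of members, and Alb in 99.2%, 95.6%, 95% and 70.7%. The median depth of lymphocytes was 3617 to 6463 UMIs.

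The label of hepatoblast-like cells was checked with 16 hepatocyte marker genes. Together they took 2.86% of the UMIs of the median member in NEJ634, 3.45% in NEJ687, 2.44% in NEJ709 and 1.1% in NEJ723, against 0.695%, 0.0563%, 0.423% and 0.248% in the other barcodes. Members with under 1% of these markers numbered 75 of 4477 in NEJ634, 1 of 113 in NEJ687, 2 of 20 in NEJ709 and 35 of 75 in NEJ723. In barcodes of at most 100 UMIs, which hold free RNA, the markers took 1.52% in NEJ634, 0.823% in NEJ687, 0.557% in NEJ709 and 0.977% in NEJ723, so the line of 1% lies below the free RNA of NEJ634 and passing it does not check the label there. Above the free RNA share of their own library were 4117 members of NEJ634 (92%), 112 of NEJ687 (99.1%), 18 of NEJ709 (90%) and 41 of NEJ723 (54.7%), against 18.4%, 5.84%, 26.8% and 12.8% of the other barcodes. The 46.7% of NEJ723 members under 1% go against the label and are called members only by the rule.

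Genes of bile duct and progenitor cells were low or present depending on the gene. The duct keratins Krt19 and Krt7 were at 0 to 5.34 and 0 to 4.84 CPM in members, while the simple epithelial keratins Krt8 (626 in NEJ634, 479 in NEJ687, 465 in NEJ709 and 588 in NEJ723) and Krt18 (479 in NEJ634, 483 in NEJ687, 474 in NEJ709 and 593 in NEJ723) made up most of the sum of the 14-gene list. That sum was 1487 in NEJ634, 1178 in NEJ687, 1196 in NEJ709 and 1902 in NEJ723 CPM in members, 1063 in NEJ634, 333 in NEJ687, 869.6 in NEJ709 and 1333 in NEJ723 in barcodes of at most 100 UMIs, and 768, 548 and 793 in hepatocytes of NEJ638, NEJ654 and NEJ677. Members thus lay above both for the list as a whole (1878 in NEJ709 without its 2 deepest members). Of its 8 tested genes 0 were called over 4-fold higher than in hepatocytes and 0 lower, beside 2.39% and 2.7% of all genes. The rule's limit on Epcam and claudin UMIs takes out barcodes with duct features beforehand, so a low level of duct genes in members follows in part from the choice.

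**Figure D2:**
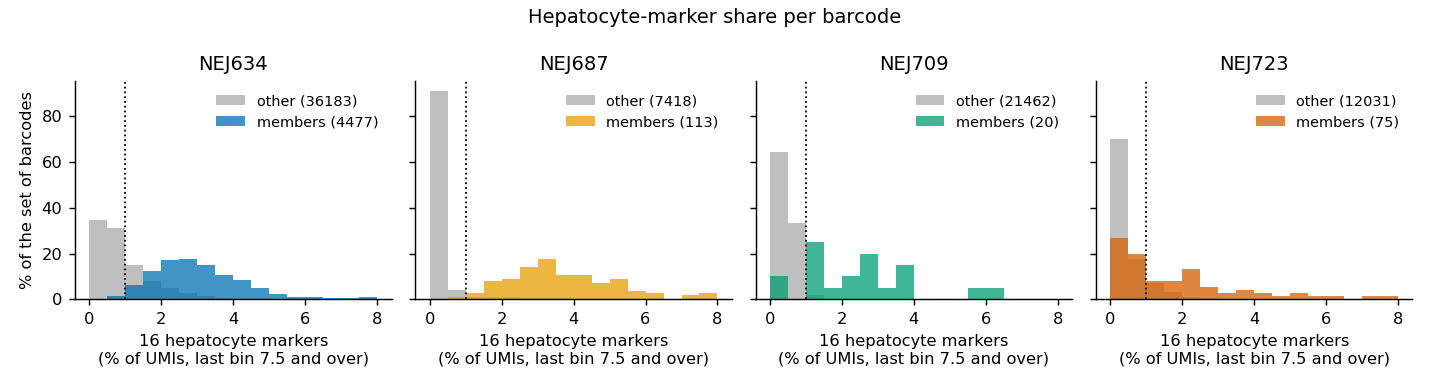
Share of a barcode's UMIs from 16 hepatocyte markers (percent, bins of 0.5, the last bin open) for members and other barcodes of each tumor library, as a percent of each set. The dotted line marks 1%, which is below the share in free RNA of NEJ634 (1.52%). In NEJ687 1 of 113 members lies below it, and in NEJ723 35 of 75.

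The 35 low-marker members of NEJ723, summed, had a profile of their own. Their level of Igf2 was 7454 CPM against 4776 in the other 40 members, but Afp was at 603 against 4182. Both genes chose the members, and a barcode low in Afp can pass only through Igf2, so both levels follow in part from the rule. Alb, 1 of the 16 markers that made the split, was at 255 against 3805. The noncoding transcript Gm26917 was at 89522 CPM against 6164. Jun, an immediate early gene that also responds to tissue dissociation, was at 5252 against 416, Btg2 at 2029 against 109, Nfkbia at 2365 against 79.3 and the histone gene H2afx at 1751 against 49.5. Ribosomal protein genes took 11.9% of their UMIs against 22.6%, and the mitochondrial share was 11.7% against 9.25%. Hes1, a target of Notch signalling, was at 661 against 139, and Cebpa, a hepatocyte transcription factor, at 487 against 89.2. Of the 33 NEJ723 members with over 1% Gm26917, 29 were among them, and such members were also found in NEJ634 (74), NEJ687 (7) and NEJ709 (4). These genes were chosen after their values had been seen, and the part of RNA quality in the profile was not tested.

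The 75 low-marker members of NEJ634 differed in another way. Of the genes of the rule, Igf2 was at 3708 CPM against 3409 in the other members and Afp at 2221 against 3557. H19 was at 5549 against 6142. The granulocyte genes S100a8 (13018 against 3888) and Camp (5597 against 1169) were higher, and Gm26917 was at 3429. In NEJ709 the 2 low-marker members summed had Gm26917 at 83316 CPM, but only 1 of them had over 1% Gm26917, so the sum is mostly that barcode's.

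Transcripts of blood cells were measured beside the members' own genes. Granulocyte markers (12 genes) summed to 11566 in NEJ634, 459.8 in NEJ687, 10122 in NEJ709 and 1181 in NEJ723 CPM in members, and to 37998 in NEJ634, 58296 in NEJ687, 88439 in NEJ709 and 39143 in NEJ723 in barcodes of at most 100 UMIs. Pan-leukocyte genes (5) summed to 669 in NEJ634, 42.2 in NEJ687, 344 in NEJ709 and 107 in NEJ723 in members against 2242 to 3424 in lymphocytes, and 1764 members of NEJ634 held at least 3 UMIs of them. None of the 5 pan-leukocyte genes was at 0 in any library's members. Without the 2 deepest members of NEJ709 the granulocyte sum there was 25153 and the pan-leukocyte sum 829. Members of NEJ634 and NEJ709 thus carried more white blood cell RNA than those of NEJ687 and NEJ723, and the order of the first pair depends on those 2 members. In NEJ634 the granulocyte level was lower at greater depth, from 17914 in 922 members of at most 2000 UMIs to 7093 in 871 members of over 5000, while the 16 hepatocyte markers went from 28675 to 34797. The hepatocyte markers of NEJ634 members stood at 2.12 times the level of barcodes of at most 100 UMIs, against 4.67 times in NEJ687, 8.36 in NEJ709 and 1.77 in NEJ723. The share in the median member was 1.88, 4.19, 4.37 and 1.12 times the free RNA share in the same order, and without its 2 deepest members the summed NEJ709 value was 4.35 times. No doublet caller was run, and the part of shared droplets and free RNA in these values was not tested.

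Haemoglobin transcripts were a small part of the median member in NEJ634, NEJ687 and NEJ723, and a larger one in NEJ709. Of all member UMIs, Hba and Hbb genes took 2.12% in NEJ634, 0.637% in NEJ687, 4.98% in NEJ709 and 19.4% in NEJ723, below the other barcodes of each library (6.39%, 22.2%, 27.6% and 25%). The median member had 1.66% in NEJ634, 0.137% in NEJ687, 14% in NEJ709 and 1.28% in NEJ723, so that the pooled share exceeded the median in NEJ723, where 15 members had over 30%, and fell short of it in NEJ709. Over those 15 members haemoglobin took 51.8% of UMIs, Igf2 was at 5688 CPM and Alb at 1215. The 15 erythroid markers summed to 744 in NEJ634, 493 in NEJ687, 1171 in NEJ709 and 2233 in NEJ723 in members and to 1535 in NEJ634, 4561 in NEJ687, 5688 in NEJ709 and 4529.8 in NEJ723 in barcodes of at most 100 UMIs, with 2597 in NEJ709 members without the 2 deepest. Members were below those barcodes in each library, but in NEJ723 they were above the free RNA of barcodes ranked 45000 to 90000 (1652). Gata1, the erythroid master regulator, was at 4.81 to 9.68, and Alas2, the first enzyme of haem synthesis in red cells, at 59 in NEJ634, 17.6 in NEJ687, 62.9 in NEJ709 and 556 in NEJ723.

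Markers of other cell types were lower in members than in barcodes of at most 100 UMIs, in all 4 libraries and for all 7 lists read. In members, the 12 macrophage and monocyte markers summed to 81.9 to 1511 CPM (barcodes of at most 100 UMIs 2547 to 4229), and the 12 endothelial markers to 74.8 to 337 (184 to 1340). The 12 T and NK markers summed to 12.1 to 95.5, the 10 B markers to 3.02 to 68.5, the 12 mesenchymal markers to 2.51 to 48.4, the 10 megakaryocyte markers to 6.53 to 90.8 and the 8 basophil and mast markers to 5.03 to 42.4. Col1a1, the fibroblast collagen gene, had 0 UMIs in members of NEJ687 and NEJ723, and Cd3e, of the T cell receptor complex, had 0 in all but NEJ634.

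No gene was over 4-fold higher in members than in all other barcodes of their library in every library compared. A gene was called if its ratio passed 4-fold in each of the 3 libraries with at least 50 members (NEJ634, NEJ687 and NEJ723), with counts under 3 set to 3 UMIs. Against all other barcodes, 0 of 4547 genes (0.0%) were called higher and 8 (0.176%) lower. The largest least ratios belonged to the fibrinogen chains Fga (3.89-fold), Fgg (3.75) and Fgb (3.66), to the thyroid hormone carrier Ttr (3.66) and to the bile acid importer Slc10a1 (3.63). Shbg, Serpind1, Apob, Apoa1 and Cyp2d26 completed the first 10, with least ratios of 3.49 to 3.63. Of these, Slc10a1, Shbg, Serpind1 and Cyp2d26 reached 50 CPM in members alone, which fixes their direction. NEJ634 set the least ratio for most of the first 10, since Fga stood at 255 CPM in its other barcodes, against 61.5 to 77.7 in those of the other libraries, and at 994 in its members. The genes called lower were led by the chemokine Ccl4 (at most 0.189 of the level in other barcodes), the macrophage receptor Trem2 (0.223), Spp1 (0.226) and the antibody light chain Igkc (0.233). Trem2, Spp1 and Igkc reached 50 CPM in the other barcodes alone, as did H2-Ab1, H2-Aa and Car1 among those called lower. That fixes their direction.

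Against lymphocytes of the same library, which lack liver genes, 392 of 4769 genes (8.22%) were called higher and 201 (4.21%) lower. This comparison was added after the data had been seen. The 7 T and B cell genes that chose the lymphocytes were tested too, and all 7 are among the 201 called lower, which follows from the choice. Of the liver lists, 15 of 16 hepatocyte markers were called higher, with 15 of 16 clotting and complement genes, 15 of 16 urea cycle and amino acid genes and 9 of 10 apolipoprotein genes. In these lists 4, 13, 12 and 3 of the tested genes reached the filter of 50 CPM in members alone and had to be higher there, so the counts are a description and nothing is read from them. The largest least ratio was that of Serpina6, which encodes the corticosteroid carrier of plasma, at 26.3-fold, followed by the glutamine transporter Slc38a3 (18.2), the clotting gene Proz (18) and the fatty acid transporter Slc27a2 (17.6). These genes also reached 50 CPM in members alone, which fixes their direction, and nothing is read from their calls. Serpina6 stood at 128 in NEJ634, 90.4 in NEJ687, 96.8 in NEJ709 and 58.8 in NEJ723 CPM in members.

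Members were then set against hepatocytes of the remaining libraries, 627 barcodes in NEJ638, 341 in NEJ654 and 734 in NEJ677, for which the labels give no age. A gene was called if all 9 ratios, of 3 tumor libraries over 3 others, passed 4-fold. Of 4525 genes tested, 108 (2.39%) were called higher in members and 122 (2.7%) lower, and the median log2 ratio was 0.27. Of the genes called higher, 5 had under 3 UMIs in the members of 1 of the 3 libraries, 3 of them 0, where 3 UMIs were set: Sfmbt2, Akr1b7, Phlda2, Fabp6 and Tnnc1. The hepatocytes were chosen by the level of 12 genes, among them Alb, Apoc3, Fgb and Trf. The lower level of those genes in members follows in part from the choice. The library, the age of the mouse and the tumor cannot be told apart in these ratios.

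Genes of the mature hepatocyte lay below the hepatocyte level in members. The 18 adult secreted and metabolic genes summed to 406 to 1046 CPM in members and 14312 to 18814 in hepatocytes, and the 18 cytochrome P450 genes to 134 to 464 and 5328 to 11096. A gene entered the comparison at 50 CPM on either side, so one that entered only through the hepatocytes had to be lower in members, as 12 of 18 adult genes and 14 of 16 P450 genes did, and the counts are descriptions. Among 18 adult secreted and metabolic genes 11 were called lower and 0 higher, beside 2.7% of all genes called lower, with a median log2 ratio of -4.64. Serpina3k, an abundant protease inhibitor of adult mouse liver, was at 3.02 in NEJ634, 0 in NEJ687, 0 in NEJ709 and 0 in NEJ723 CPM in members and at 6534, 3076 and 3509.9 in hepatocytes. Mup3, a major urinary protein, was at 0.232 in NEJ634, 0 in NEJ687, 0 in NEJ709 and 0 in NEJ723 against 630.5, 3619.5 and 4208. Both genes were thus at most 3.02 CPM in members and at least 630.5 in hepatocytes. Of 16 tested cytochrome P450 genes 10 were called lower (median log2 ratio -4.29), beside the same 2.7%. Cyp2e1, which oxidises ethanol around the central vein, was at 23.8 in NEJ634, 10.6 in NEJ687, 0 in NEJ709 and 5.34 in NEJ723 against 2018, 765 and 918. Cyp2f2, a gene of hepatocytes near the portal vein, was at 2.26 in NEJ634, 4.02 in NEJ687, 9.68 in NEJ709 and 5.34 in NEJ723 against 489, 809.8 and 500.4. Cyp2c29 reached at most 12.6 in members against 438 to 1829.9. The tryptophan enzyme Tdo2 (0 to 27.2 against 902 to 1074), the steroid enzyme Akr1c6 (0 to 34.4 against 1000.5 to 2187) and the complement lectin Mbl2 (0 to 6.44 against 434 to 1142) completed the named list, with Adh1 and Mug1.

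In other liver functions some genes were called lower, beside 2.7% of all genes, and some lay close to the hepatocyte level. Among clotting and complement genes 4 of 22 were called lower, with C9, of the membrane attack complex, at 0 to 1.91 against 114 to 183. Fgb, a fibrinogen chain, was at 1754 in NEJ634, 2529 in NEJ687, 1689 in NEJ709 and 502 in NEJ723 against 2571, 2992 and 2388. F9, whose lack causes haemophilia B, was at 0 to 4.75 against 41.4 to 120.4, and its least ratio, with counts under 3 set to 3 UMIs, was 2.59-fold, so it was not called. Among apolipoproteins 2 of 10 were called lower (Apoc1 and Apoa5). Apoc3, an inhibitor of lipoprotein lipase that was counted among the hepatocyte markers, was called lower too, at 329 in NEJ634, 395 in NEJ687, 295 in NEJ709 and 69.5 in NEJ723 against 4057, 10086 and 5494. Apoc3 and Fgb are among the 12 genes that chose the hepatocytes, so their lower level in members follows in part from the choice. In the other direction Apoc2, the activator of lipoprotein lipase, was at 3339.6 in NEJ634, 4938 in NEJ687, 6017 in NEJ709 and 2687 in NEJ723 against 969, 1324 and 768. Apoa4, a protein of triglyceride-rich lipoproteins, was at 216 in NEJ634, 249 in NEJ687, 256 in NEJ709 and 1165 in NEJ723 against 33.6, 110.3 and 38. Both lay above every hepatocyte library in every tumor library, though neither passed 4-fold in all 9 ratios (2.03 to 6.43-fold for Apoc2). Among urea cycle and amino acid genes 3 of 18 were called lower (Otc, Tdo2 and Agxt). Cps1, which starts the urea cycle, was at 824 in NEJ634, 846 in NEJ687, 445 in NEJ709 and 123 in NEJ723 against 3354, 1492 and 864. Ass1, a later enzyme of the cycle, was at 508 to 2082 against 2745 to 4947. Among bile acid transport genes 2 of 10 were called lower (Slco1b2 and Baat). The export pump Abcb11 was at 208 in NEJ634, 178 in NEJ687, 155 in NEJ709 and 16 in NEJ723 against 207, 264 and 182. The acute phase list had 1 of 13 called lower (Orm1). In hepatocytes alone, 6 of 22 clotting and complement genes and 2 of 18 urea cycle and amino acid genes reached 50 CPM. So did 4 of 10 bile acid transport genes and 4 of 13 acute phase genes. That fixes their direction, as for C9, F9 and Tdo2, and these counts are descriptions.

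**Figure D3:**
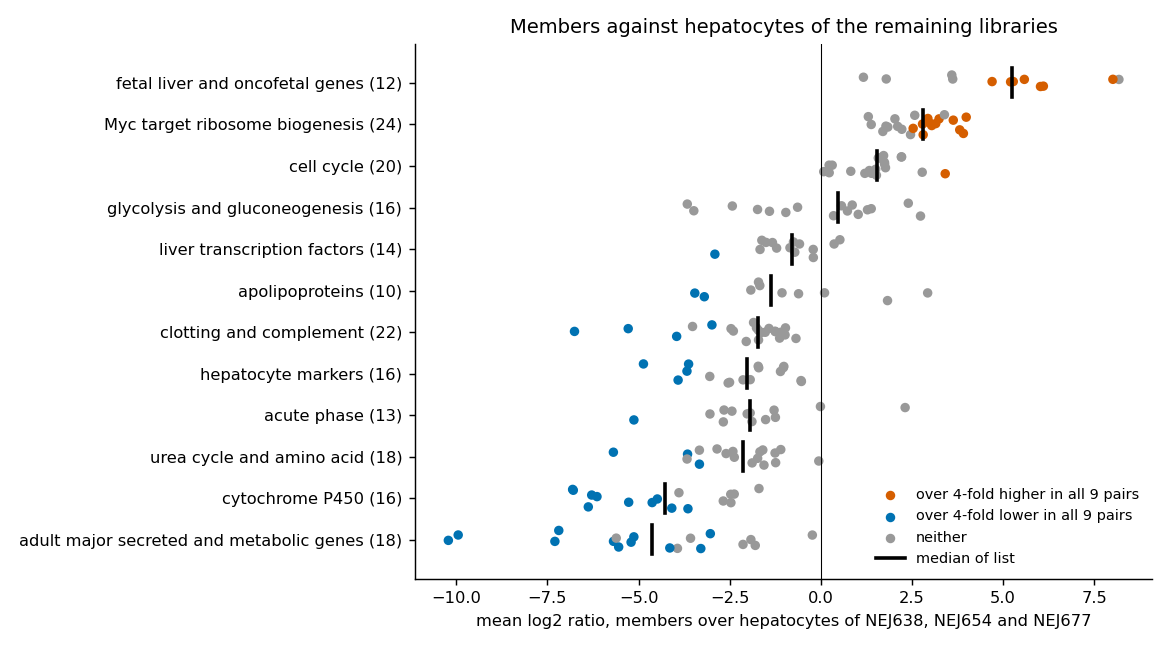
Mean log2 ratio of the level in members (NEJ634, NEJ687 and NEJ723) to that in hepatocytes of the 3 remaining libraries, 1 point per gene tested and list, with the number of genes in parentheses and the median as a bar. Adult secreted and P450 genes lie to the left (medians -4.64 and -4.29), ribosome biogenesis and fetal genes to the right (2.8 and 5.24), where most genes passed the filter of 50 CPM on 1 side alone.

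The transcription factors that run the hepatocyte program were present. Hnf4a, which maintains hepatocyte identity, was at 104 in NEJ634, 147 in NEJ687, 92 in NEJ709 and 64.1 in NEJ723 CPM in members, against 185, 168 and 182 in hepatocytes and 2.56 to 8.94 in lymphocytes. Prox1, needed for hepatoblasts to leave the liver bud, was at 64.1 to 80.9 against 54.7 to 183, and Hhex, of the early liver bud, at 92 to 139 against 96.3 to 213. Cebpa was at 79.4 in NEJ634, 122 in NEJ687, 72.6 in NEJ709 and 272 in NEJ723 against 288, 183 and 237 in hepatocytes. The low-marker members of NEJ723 held most of its Cebpa UMIs, and with at least 1% hepatocyte markers Cebpa was at 89.2 there and at 122 in NEJ687. Onecut2 was the 1 factor of 14 called lower, beside 2.7% of all genes, at 0 to 16.1 against 81.7 to 146. Foxa2 was at 9.68 to 14.1 against 24.1 to 55.4. Of the 14 tested factors 7 reached 50 CPM in hepatocytes alone, which fixes their direction.

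Several fetal and oncofetal genes lay above hepatocytes in members, among them Bex1 and Bex2. Of 12 tested genes of that list (20 listed), 7 were called higher and 0 lower, with a median log2 ratio of 5.24. Since 11 of them reached 50 CPM in members alone, they had to lie above the hepatocytes, and nothing is read from this count and median. Bex1, of the brain-expressed X-linked family, was at 327 in NEJ634, 602 in NEJ687, 513 in NEJ709 and 513 in NEJ723 CPM in members and 3.44, 0 and 0 in hepatocytes, and the least of the 9 ratios was 94.9-fold. Bex2 of the same family was at 144 in NEJ634, 208 in NEJ687, 136 in NEJ709 and 80.1 in NEJ723 against 2.29, 3.05 and 1.24, and Bex3 and Bex4, outside the list and looked up after its values had been seen, were called higher too. The members of all 4 libraries lay above the hepatocytes for both Bex1 and Bex2, but both reached 50 CPM in members alone, which fixes their direction. Igf2bp3, an RNA-binding protein of fetal tissues, was at 58.8 to 84.8 against 16.4 to 29.1, while Lin28b was at 0 to 5.34 and Hmga2 at 0 to 0.986. Dlk1, a surface marker of hepatoblasts, was at 30.8 (28.2 to 33.5) in NEJ634, 57.8 (47.7 to 69.4) in NEJ687, 14.5 (3 to 42.4) in NEJ709 and 64.1 (33.1 to 112) in NEJ723. Gpc3, a proteoglycan used to stain hepatoblastoma, was at 3.88 (3.01 to 4.93) in NEJ634, 1.51 (0.311 to 4.41) in NEJ687, 4.84 (0.123 to 27) in NEJ709 and 48.1 (22 to 91.3) in NEJ723. Gpc3 was at 23.3, 0 and 2.47 in hepatocytes, so among the 4 libraries NEJ723 members were above all of them, with a count of 9 UMIs. Sall4 was at 15.1 in NEJ634, 25.1 in NEJ687, 4.84 in NEJ709 and 5.34 in NEJ723.

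Of the imprinted genes outside the H19 region, Peg3, Peg10, Grb10 and Meg3 lay above the hepatocytes in members. Peg3 was at 262 in NEJ634, 345 in NEJ687, 271 in NEJ709 and 406 in NEJ723 against 46.3, 9.14 and 4.95. Peg10, derived from a retrotransposon, was at 82 in NEJ634, 161 in NEJ687, 53.2 in NEJ709 and 64.1 in NEJ723 against 1.53, 0.609 and 0.928. These genes are expressed from the paternal chromosome. Grb10, an inhibitor of insulin receptor signalling, was at 237 in NEJ634, 243 in NEJ687, 242 in NEJ709 and 182 in NEJ723 against 27.5, 6.09 and 1.24. Meg3, a noncoding RNA of the Dlk1 cluster, was at 39.2 in NEJ634, 91 in NEJ687, 24.2 in NEJ709 and 80.1 in NEJ723 against 1.53, 0 and 0.309. All 4 passed the call, as did Dlk1, but the 7 tested genes of this list, chosen after the values had been seen, all reached 50 CPM in members alone, so nothing is read from the calls.

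The library NEJ723 stood apart in the imprinted region of distal chromosome 7. H19 (142575529 to 142578143), Igf2 (142650766 to 142666816) and Cdkn1c (143458339 to 143461050) lie there on the minus strand of chromosome 7 (GENCODE M21, GRCm38). As background, H19, Cdkn1c, Phlda2 and Slc22a18 are expressed from the maternal chromosome, and Igf2 and Kcnq1ot1 from the paternal one. Members of NEJ723 had 69 H19 UMIs for 1125 Igf2 UMIs, a ratio of 0.0613, against 1.8 in NEJ634, 2.89 in NEJ687 and 1.85 in NEJ709. Igf2 is a gene of the rule, so these ratios depend in part on the choice of members. Cdkn1c, which encodes the cell cycle inhibitor p57, had 4267 UMIs in NEJ634 (247 CPM), 727 in NEJ687 (365) and 64 in NEJ709 (309.8). In NEJ723 it had 0 UMIs, which allows a level of up to 16 CPM if the limit is set at 3 UMIs, and up to 19.7 by the exact Poisson interval. Phlda2 and Slc22a18 had 0 UMIs in NEJ723 too, against 38.4 to 83.4 and 19.5 to 33.9 CPM in the other 3 libraries. The depth of NEJ723 members, 187173 UMIs outside mitochondrial, Hba and Hbb genes, limits these counts of 0. For Slc22a18 the lowest level of the other libraries lies within that interval, so a difference was not detectable there. The paternally expressed Kcnq1ot1 was at 127 in NEJ634, 121 in NEJ687, 62.9 in NEJ709 and 176 in NEJ723, so NEJ723 was the highest, and the maternally expressed genes of other chromosomes were present there, with Grb10 at 182, Igf2r at 85.5 and Meg3 at 80.1.

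Low H19 and Cdkn1c were also read in barcodes that the rule leaves out. The 125 Afp and Igf2 barcodes of NEJ723 with at least 3 Epcam and claudin UMIs held more UMIs than the members, 13195 of them Igf2. H19 there was at 47.6 CPM, Cdkn1c had 2 UMIs (0.379), Phlda2 5 and Slc22a18 4, while Kcnq1ot1 was at 238 and Grb10 at 150. The corresponding barcodes of NEJ634 (67) had H19 at 6409 and Cdkn1c at 348. As summed levels, low H19 and Cdkn1c were thus found in NEJ723 in members and in the barcodes left out alike. Among NEJ723 members, 5 barcodes held 56 of the 69 H19 UMIs, and over the other 70 the level was 72.8, near that of lymphocytes of the library (77.6). Those 5 held 16, 15, 11, 8 and 6 H19 UMIs, with 10, 0, 13, 10 and 16 of Afp and 4, 18, 0, 1 and 0 of Igf2. Of 50 members of NEJ723 with at least 10 Igf2 UMIs, 39 had no H19 UMI. Without the low-marker members, H19 in NEJ723 was at 476 and Cdkn1c still had 0 UMIs.

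**Figure D4:**
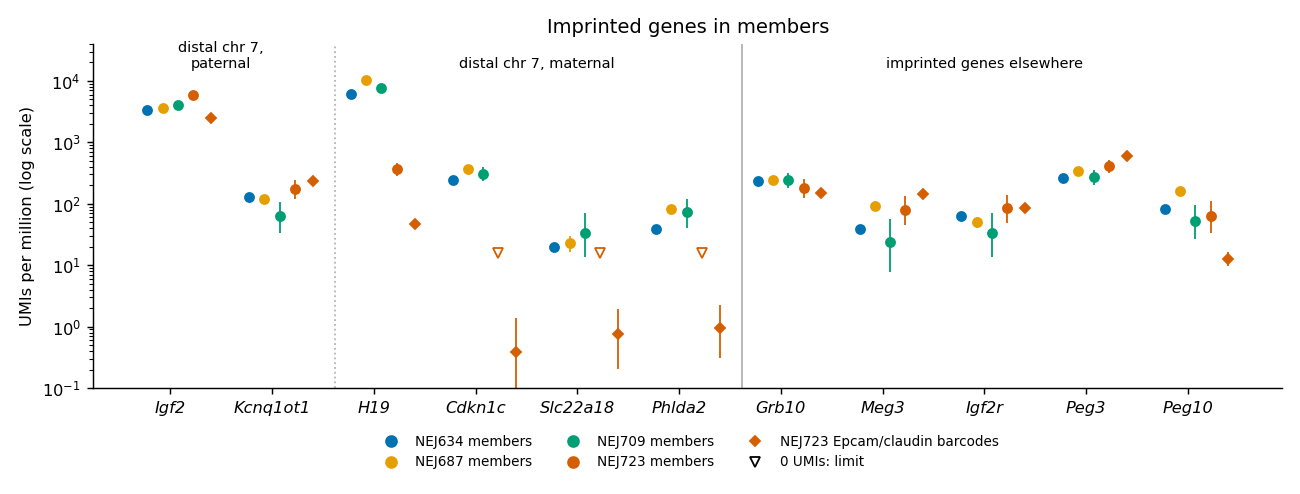
Levels of imprinted genes in CPM (log axis) in members of the 4 tumor libraries (circles) and in Epcam and claudin barcodes of NEJ723 (diamonds), with exact 95% Poisson intervals and open triangles at the limit of 3 UMIs set for a count of 0. In NEJ723 members H19 lies at 369 and Cdkn1c, Slc22a18 and Phlda2 at 0 UMIs, while Igf2, Kcnq1ot1 and the genes of other regions lie within the range of the other libraries or above it, Grb10 aside (182).

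The IGF axis around Igf2 was described by its receptors and binding proteins. Igf1, the liver hormone of postnatal growth, was called lower than in hepatocytes, at 80.2 in NEJ634, 16.1 in NEJ687, 14.5 in NEJ709 and 26.7 in NEJ723 against 1515, 842 and 628. Igf1r, the receptor that carries the growth signal, was at 0 to 12.8 against 0.609 to 7.26, and Igf2r, which clears the ligand, at 33.9 to 85.5 against 18.6 to 35.2. Igfbp1 was at 331 in NEJ634, 380.4 in NEJ687, 300.1 in NEJ709 and 294 in NEJ723 against 113, 20.1 and 46.4, above every hepatocyte library in each case. Igfbp2 was at 717 in NEJ634, 1003 in NEJ687, 876 in NEJ709 and 166 in NEJ723 against 527, 696 and 383, so that NEJ723 lay below the hepatocytes, as did NEJ709 without its 2 deepest members (256). Of 9 tested genes of this list 1 was called lower and 0 higher, beside 2.7% and 2.39% of all genes.

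Genes of ribosome production, which are known targets of MYC, were read in members and hepatocytes. Of 24 such genes 13 were called higher and 0 lower, but 18 of the 24 reached 50 CPM in members alone, which fixes their direction, and nothing is read from this count. Ncl, which encodes nucleolin, was at 2115 in NEJ634, 2319 in NEJ687, 1597 in NEJ709 and 1629.5 in NEJ723 against 252, 183 and 245. Npm1, which encodes nucleophosmin, was at 2694 in NEJ634, 2972 in NEJ687, 2323 in NEJ709 and 2259.9 in NEJ723 against 237, 222 and 404. Srm, the spermidine synthase gene, was at 252 to 547 against 15.2 to 30.2, and Cad, of pyrimidine synthesis, at 33.9 to 99 against 4.59 to 5.48. Against lymphocytes of the same library 0 of the 24 passed 4-fold, with a median log2 ratio of 1.0. Mouse Myc itself was at 104 in NEJ634, 67.8 in NEJ687, 140.4 in NEJ709 and 134 in NEJ723 against 47.4, 4.88 and 4.64, with 29.7 in NEJ723 members of at least 1% hepatocyte markers, and the human MYC transgene was not analysed here, as the gene list has no entry of that name.

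Genes of serine and asparagine synthesis were among the 10 with the largest ratios to hepatocytes. Phgdh, the first enzyme of serine synthesis, had the largest least ratio of all, 149-fold, at 374 in NEJ634, 538 in NEJ687, 436 in NEJ709 and 272 in NEJ723 CPM in members against 1.53 in NEJ638, 0 in NEJ654 and 0.928 in NEJ677 in hepatocytes. The next enzymes of that pathway, Psat1 (126 to 224 against 0.619 to 12.6) and Psph (64.1 to 111 against 8.41 to 11.4), were called as well. Phgdh and the rest of the first 10, with Psat1 and Psph, reached 50 CPM in members alone. That fixes their direction, and nothing is read from these calls. The members of all 4 libraries lay above all 3 hepatocyte libraries for Phgdh, Psat1 and Psph. Shmt1, which turns serine into glycine, overlapped the hepatocytes (106 to 164 against 119.7 to 148), as did Shmt2 (96.2 to 204 against 82.3 to 172). Other cells of the tumor libraries lay above the hepatocytes too, with Phgdh at 58.8 to 112 in lymphocytes and 96.3 to 179 in all other barcodes, and Psat1 at 18.7 to 43.5 and 26.9 to 89.7, so these ratios are not particular to the members. Psat1, Psph, Shmt1 and Shmt2 were chosen after their values had been seen. Asns, the asparagine synthetase gene, had a least ratio of 51.1-fold, and stood at 58.1 to 121 CPM in members and 61.6 to 127 in the other barcodes. Lgals2 (64.3-fold), Gsn, which encodes an actin-severing protein (51.2), the phosphatase Dusp9 (49.9), the glutathione-cleaving enzyme Ggt1 (47.1) and Ydjc (30.4) completed the first 10 with Bex1, Peg10 and Bex2. Of the 108 genes called higher, 5 were granulocyte markers, and 17 had a higher level in NEJ634 barcodes of at most 100 UMIs than in its members. Granulocyte markers summed to 143, 57.3 and 64 CPM in the hepatocytes, and their part in these calls was not tested.

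Glycolysis genes differed from each other. None of 16 tested genes passed 4-fold in all ratios, in either direction, beside 2.39% of all genes called higher and 2.7% lower. Aldoa (358 in NEJ634, 410.5 in NEJ687, 194 in NEJ709 and 262 in NEJ723) and Pkm (109 in NEJ634, 67.8 in NEJ687, 67.8 in NEJ709 and 102 in NEJ723) lay above hepatocytes (53.6 to 78.2 and 5.26 to 24.1), and Ldha, which makes lactate, was at 1176 to 1818 against 542 to 604. The gluconeogenic genes Pck1 (21.4 to 188 against 745 to 1753) and Fbp1 (26.7 to 212 against 829.7 to 1482) lay below.

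Proliferation genes were present in members. The 28 genes summed to 3076 in NEJ634, 2248 in NEJ687, 2106 in NEJ709 and 2569.8 in NEJ723 CPM in members, and to 4786 in NEJ634, 4573 in NEJ687, 3741 in NEJ709 and 4101 in NEJ723 in lymphocytes, which can divide too. Members lay below lymphocytes in NEJ634, NEJ687 and NEJ723, and the order in NEJ709 turned without its 2 deepest members (4109). Mki67, the proliferation marker, was at 248 in NEJ634, 164 in NEJ687, 92 in NEJ709 and 229.7 in NEJ723 in members, 80.7, 148 and 20.7 in hepatocytes and 273 to 370.5 in lymphocytes. After thinning, a Mki67 UMI was found in 21.6% of members in NEJ634, 10.6% in NEJ687, 15% in NEJ709 and 12% in NEJ723, against 23.5%, 9.39%, 8.15% and 10.1% of lymphocytes. Top2a, of the same phases, was found in 12.8%, 7.96%, 25% and 4% of members, against 15.1%, 6.85%, 8.15% and 8.91% of lymphocytes. The Mki67 interval in NEJ634 members was 20.4 to 22.8%. Without thinning the Mki67 shares were 48.6%, 61.1%, 45% and 26.7% of members. Of 20 tested cell cycle genes 1, the replication helicase gene Mcm2 (19.4 to 64.1 against 1.55 to 9.56), was called higher than in hepatocytes, beside 2.39% of all genes, and its level in NEJ634 was higher in barcodes of at most 100 UMIs than in members. Of the 20 genes 7, Mcm2 among them, reached 50 CPM in members alone, which fixes their direction, so nothing is read from the call. The low-UMI barcodes held more of the 28 genes than the members in every library (3775 in NEJ634, 5205 in NEJ687, 5625 in NEJ709 and 4944 in NEJ723), but in NEJ723 the order turned with free RNA taken from barcodes ranked 45000 to 90000 (2488).

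Targets of Wnt and beta-catenin, a pathway often mutated in human hepatoblastoma, differed in level, with several near 0. The 14 genes of the list summed to 203 to 289 CPM in members and 297 to 739.5 in hepatocytes. Of the 3 tested (Glul, Ccnd1 and Lect2), 0 were called higher and 0 lower. In members Axin2 was at 0 to 1.28, Lgr5 at 0 to 0.928, and Notum at 0 to 0.522 CPM, and Sp5 and Dkk1 had 0 UMIs in all 4 libraries. Glul, which marks hepatocytes around the central vein, was at 237 in NEJ634, 194 in NEJ687, 189 in NEJ709 and 171 in NEJ723 against 346, 70.7 and 362. Ccnd1 was at 0 to 16.3 against 62.7 to 71.3. At the depth of NEJ709 and NEJ723, 0 UMIs allow, by the limit of 3 UMIs, levels of up to 14.5 and 16 CPM, so low targets were not detectable there.

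Genes by which liver cells govern iron and support blood formation differed between the tumor libraries. Hamp, which encodes the iron hormone hepcidin, was at 1425 (1407 to 1443) in NEJ634, 787 (748 to 827) in NEJ687, 53.2 (26.6 to 95.3) in NEJ709 and 304 (231 to 395) in NEJ723 in members, and at 42.1, 1652 and 1588 in hepatocytes. Its duplicate Hamp2, with which it can share reads, was at 125 in NEJ634, 8.54 in NEJ687, 0 in NEJ709 and 0 in NEJ723. The spread over hepatocyte libraries was as wide as that over tumor libraries, so no direction is given. Hamp also varied between members: in NEJ634 the 10% of members with most Hamp UMIs held 51.5% of them, and in NEJ687 61.8%. Tfrc, the transferrin receptor, was at 188 in NEJ634, 274 in NEJ687, 242 in NEJ709 and 208 in NEJ723 against 135, 8.53 and 3.4. Trf, its ligand, was at 1993 to 4366 against 7048 to 12119.7, but Trf is among the 12 genes that chose the hepatocytes. Of the blood-forming ligands Kitl was at 6.53 to 26.7, Thpo at 0 to 6.53 and Cxcl12 at 5.34 to 69.8 (59.7 to 219 in hepatocytes), and Epo had 0 UMIs in all members. Shbg, the carrier of sex steroids that mouse liver makes before birth, was at 33.4 in NEJ634, 50.2 in NEJ687, 29 in NEJ709 and 16 in NEJ723 against 0, 0 and 0. It was called higher, but it reached 50 CPM only in NEJ687 members, which fixes its direction, so nothing is read from the call.

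Members of 1 library differed from each other most in a few noncoding RNAs, granulocyte genes and liver genes. The variance of a gene's UMIs between members was divided by that of counting alone, for genes with at least 100 UMIs. In NEJ634 the median ratio over 9598 genes was 1.06, and the first places went to Gm42418 (167), S100a8 (89.2), S100a9, Camp, Gm26917, Hamp2 (38), Malat1, Ngp, Tmsb4x and Hamp (22.4). S100a8, S100a9, Camp and Ngp are granulocyte genes, and all 4 had a higher level in barcodes of at most 100 UMIs than in the members of each library. In NEJ687, whose members were deeper, the liver genes Alb (79.8), Hamp (72.2), Apoe (68.5), Ttr (47.6) and H19 (36.1) were among the first 10, with Gm42418, Gm26917, Fabp4, S100a9 and S100a8. Fabp4, a gene of endothelial and fat cells, was found in 8.85% of NEJ687 members. In NEJ709, with 20 members, Mt1, Apoc2, Apoa2 and Hp were among the first 10, with 84.5 to 88.5% of their UMIs in 2 members. In NEJ723 Gm26917 (264), Gm42418 and Jun led, followed by Lars2, Malat1, Ubb, Gpx1, Nfkbia, Apoa1 and Alb.

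Between members, genes that the rule did not use could be set beside each other. Over the 871 NEJ634 members of at least 5000 UMIs, Pearson's r of log levels between Alb and Ttr was 0.57, and over the 88 of NEJ687 it was 0.56. With Alb it was 0.53 and 0.49 for Apoa1, 0.47 and 0.25 for Apoa2 and 0.14 and 0.09 for Fabp1. It was 0.00 and 0.14 for Hamp and -0.15 and -0.21 for H19. These values are across cells that share a library and a denominator, and they are given as a description. The r between Alb and Afp, a gene of the rule, was 0.61 in NEJ634 and 0.58 in NEJ687. The values above can thus depend in part on the choice of members.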

How the data were processed

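Raw UMI counts per gene and barcode were deposited by the authors for 7 droplet libraries (10x 3' V3.1), with no cell filter and no normalization, and intronic reads were included per the study's methods. No doublet caller was run. The file headers name Cell Ranger 4 and the labels Cell Ranger 6.0, and the genome build is not stated. Each library lists 32285 genes. The tumor libraries hold 76988802 to 132485391 UMIs. Members and gene lists were chosen with earlier results of these data known, and no part of the analysis is independent of them. Levels are UMIs summed over barcodes per 1000000 UMIs (CPM) outside mitochondrial, Hba and Hbb genes. Genes at 50 CPM or more on either side of a comparison were tested against a fold of 4, the 6 genes of the rule aside, and counts under 3 were set to 3. Genes named were the markers, listed genes, the 10 with the largest least ratio to other barcodes, the 10 largest and 10 smallest to hepatocytes, and the 10 most variable per library, apart from those said to be chosen later. The labels give 0 groups, so no test was made. The steps were tested on simulated data. Alternatives changed the limits of the rule, the total, the weighting, the gene filter, the comparator, the thinning and the free RNA profile (barcodes ranked 45000 to 90000). Python 3.11.15, numpy 2.4.6, scipy 1.17.1, pandas 2.3.3 and matplotlib 3.10.9 were used. Gene positions are from GENCODE M21 and promoters from RefSeq. Other data of the study were not analysed here.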

Additional observations from a re-analysis of the deposited data

How the results depend on the processing

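Of 94 recomputed counts, 58 came within 1.5 times the reported count and 36 did not. An Afp and Igf2 limit of 0.8% left 1360 members in NEJ634, 18 in NEJ687, 5 in NEJ709 and 41 in NEJ723, and 0.2% gave 170 in NEJ687 and 40 in NEJ709. NEJ723 had 48 members over 2000 UMIs, 36 at no more than 10% mitochondrial UMIs, 200 with no Epcam and claudin limit and 40 with at least 1% hepatocyte markers. NEJ709 had 13 at the mitochondrial limit of 10%, and without members holding 3 pan-leukocyte UMIs it had 8 and NEJ634 2713. Against other barcodes, the numbers of genes called higher and lower were 0 and 8 as reported. They were 0 and 32 over 2000 UMIs, 3 and 16 at 10% mitochondrial UMIs, and 1 and 14 with at least 1% hepatocyte markers, where NEJ723 fell under 50 members and left the comparison. They were 1 and 10 at 0.2%, 4 and 24 at 0.8% (NEJ634 alone), 7 and 28 with no Epcam and claudin limit, 1 and 8 without shared barcodes, and 3 and 72 without the leukocyte-bearing members. They were 1 and 5 per total UMIs, 1 and 1 as means over barcodes, 16 and 8 with genes from 10 CPM, and 392 and 201 against lymphocytes (chosen after seeing the data). Against hepatocytes, 204 genes were called higher with genes from 10 CPM (108 as reported), and 184 lower at 10% mitochondrial UMIs and 209 at 0.8% (122 as reported), both with fewer libraries compared. For the rest the cause was not tested. Free RNA taken from barcodes ranked 45000 to 90000 had Afp at 1111 CPM in NEJ634 (919 in barcodes of at most 100 UMIs), 432 in NEJ687 (188), 451 in NEJ709 (510.4) and 943 in NEJ723 (779). Against that profile 97% of NEJ634 members, 98.2% in NEJ687, 90% in NEJ709 and 48% in NEJ723 exceeded the hepatocyte marker share of free RNA, and in NEJ723 the members were above it, not below, for the erythroid (1652 CPM in free RNA) and cell cycle lists (2488). H19 in NEJ723 lay at 58.6 to 494 CPM under the changes of membership, and Cdkn1c at 0 to 3.82. The number of members limits what can be read in NEJ709 (20) and NEJ723 (75). No paired analysis was possible because the labels give no groups and no replicate numbers.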

Other observations

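The 1 barcode outside the tumor libraries that met the rule was in NEJ654. It had 2874 UMIs, 5 of Afp, 6 of Igf2 and 9 of H19, and 2.16% of its UMIs outside mitochondrial, Hba and Hbb genes came from hepatocyte markers. The same barcode passed the limits in another library, where it was not a member. In hepatocytes of NEJ638, H19 was at 244 (225 to 264) CPM and Igf2 at 0.765 (0.0926 to 2.76), the reverse of the balance in NEJ723 members.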
